A study of Mus musculus with 8 samples.

Results

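The anaphase-promoting complex is followed here through 10 genes: 4 of its constitutive subunits (Anapc1, Cdc16, Cdc23 and Cdc27) and 6 genes that act on it or through it. The latter are the activators Cdc20 and Fzr1, the ubiquitin-conjugating enzymes (E2s) Ube2c and Ube2s, the inhibitor Fbxo5 and the substrate Pttg1. They were chosen by symbol and were all present among 22065 named genes of the count table. All 10 passed the filter on low counts, which left 16444 genes to test. The study asked what loss of MITOL, a ubiquitin ligase of the mitochondrial outer membrane encoded by Marchf5, does to haematopoietic stem cells (HSCs). RNA was sequenced from 8 libraries of 100 sorted HSCs each, 4 labelled Mitol KO and 4 labelled control. Cells were bone marrow CD150+ CD48- EPCR+ Lineage- cells of C57BL/6 mice aged 8 to 10 weeks. The paper's definition of long-term HSCs also requires CD117 (c-Kit), the product of Kit. Mitol KO mice were Mitol Flox/Flox with 1 copy of the MX1-cre transgene, and controls were Mitol Flox/Flox littermates without Cre. All mice received Poly:IC, an inducer of interferon that switches on the MX1 promoter, and the RNA-seq samples were taken 1 week later. Deletion by MX1-cre is not limited to HSCs, since the promoter answers to interferon in many cell types. The labels do not say whether each library came from its own mouse, so the p-values measure the spread between these libraries.

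The anaphase-promoting complex is a large ubiquitin ligase whose scaffold and tetratricopeptide subunits are present throughout the cell cycle, while its partners come and go. CDC20 activates it in mitosis, and CDH1, the product of Fzr1, keeps it active from mitotic exit through G1 and in cells that have left the cycle. UBE2C starts ubiquitin chains, UBE2S extends them, EMI1 (Fbxo5) blocks the complex in S and G2 phase, and securin (Pttg1) and the mitotic cyclins are among the proteins it destroys. In HSCs, which are mostly quiescent, the CDH1 form is the one associated with rest.

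Marchf5, the targeted gene, had 276, 232, 308 and 281 normalized counts in the libraries labelled Mitol KO and 299, 312, 333 and 262 in the controls, and the groups overlapped (log2 fold change -0.15, SE 0.13, adjusted p = 0.498, edgeR). A count over a whole gene includes exons outside the floxed part, so it does not check the deletion, and each direction given here rests on the labels. The paper's methods state that mice were taken as deleted once PCR had shown the loss of Mitol. A normalized count is the raw count over its library's size factor, fold changes are Mitol KO over control, and adjusted p-values come from the quasi-likelihood test of edgeR over all tested genes. Library totals ran from 7214935 to 12398138 counts. Stem cell markers were abundant in every library, with a sum over 10 genes of 28459 to 32693 normalized counts in Mitol KO and 40782 to 48079 in control libraries. Of these 10, 3 fell, Kit and Hlf among them, and none rose with edgeR, against 3.75% and 4.68% of all tested genes. The sort marker Slamf1 (CD150) was at a log2 fold change of 0.56 (adjusted p = 0.0501 with edgeR and 0.0117 with DESeq2), with every Mitol KO library above every control, and Ly6a was at 0.76 (adjusted p = 0.0605 with edgeR and 0.0107 with DESeq2). Erythroid markers summed to 1800.2 to 5144 in Mitol KO and 1088 to 1467 in controls. Of 10, 7 were tested and 3 rose (Gata1, Hbb-bt and Tfrc), against 4.68% of all tested genes. Gata1 had 114, 131, 297 and 305 normalized counts in Mitol KO and 25.1, 31.9, 22.6 and 6.29 in control libraries. The haemoglobin gene Hbb-bs was high in Mitol KO replicate 3 alone, with 1048 normalized counts. Cd48, against which the cells were sorted, had 22.2 to 63.4 normalized counts in Mitol KO and 4.49 to 21.7 in control libraries. It rose by 1.72 on the log2 scale (adjusted p = 0.0450 with edgeR and 0.0103 with DESeq2), with every Mitol KO library above every control. That call held in 2 of 8 edgeR fits that left out 1 library. The megakaryocyte sum was 7620.2 to 10570.0 against 13111 to 15306, the neutrophil sum 485 to 1023 against 405 to 616, the B cell sum 136 to 150.3 against 145 to 204, and the T cell sum 189 to 259 against 172 to 200.5. Most of the neutrophil sum was Prtn3, at 462, 573, 817 and 1006 in Mitol KO and 566, 443, 333 and 332 in control libraries. S100a9 had 0 counts in every Mitol KO library and 2.64 to 21.3 normalized counts in controls. Elane, Mpo, S100a8 and Camp also had lower means in Mitol KO, and Ngp and Ltf higher ones. Defining lymphoid markers (Pax5, Ebf1, Ms4a1, Cd3e, Cd3g and Cd8a) had no row in the table. The part of these markers in the results that follow was not tested.

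Of the 10 genes, Cdc20, Ube2c and Fbxo5 rose in the libraries labelled Mitol KO, and none fell. Among all tested genes, 4.68% were called higher and 3.75% lower, 8.43% in all. The groups did not overlap for Cdc20, Ube2c, Fbxo5 and Fzr1, all higher in Mitol KO, which is 4 of 10 genes against 8.17% of all tested genes, and no gene of the 10 lay wholly below the controls, against 7.18%. None of the 4 subunits passed the test. The median log2 fold change was 0.60 over the 6 activators, E2s, inhibitor and substrate, 0.09 over the 4 subunits and -0.02 over all tested genes. In bulk RNA, more cells that express a gene and more RNA in each cell cannot be told apart.

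**Figure D1:**
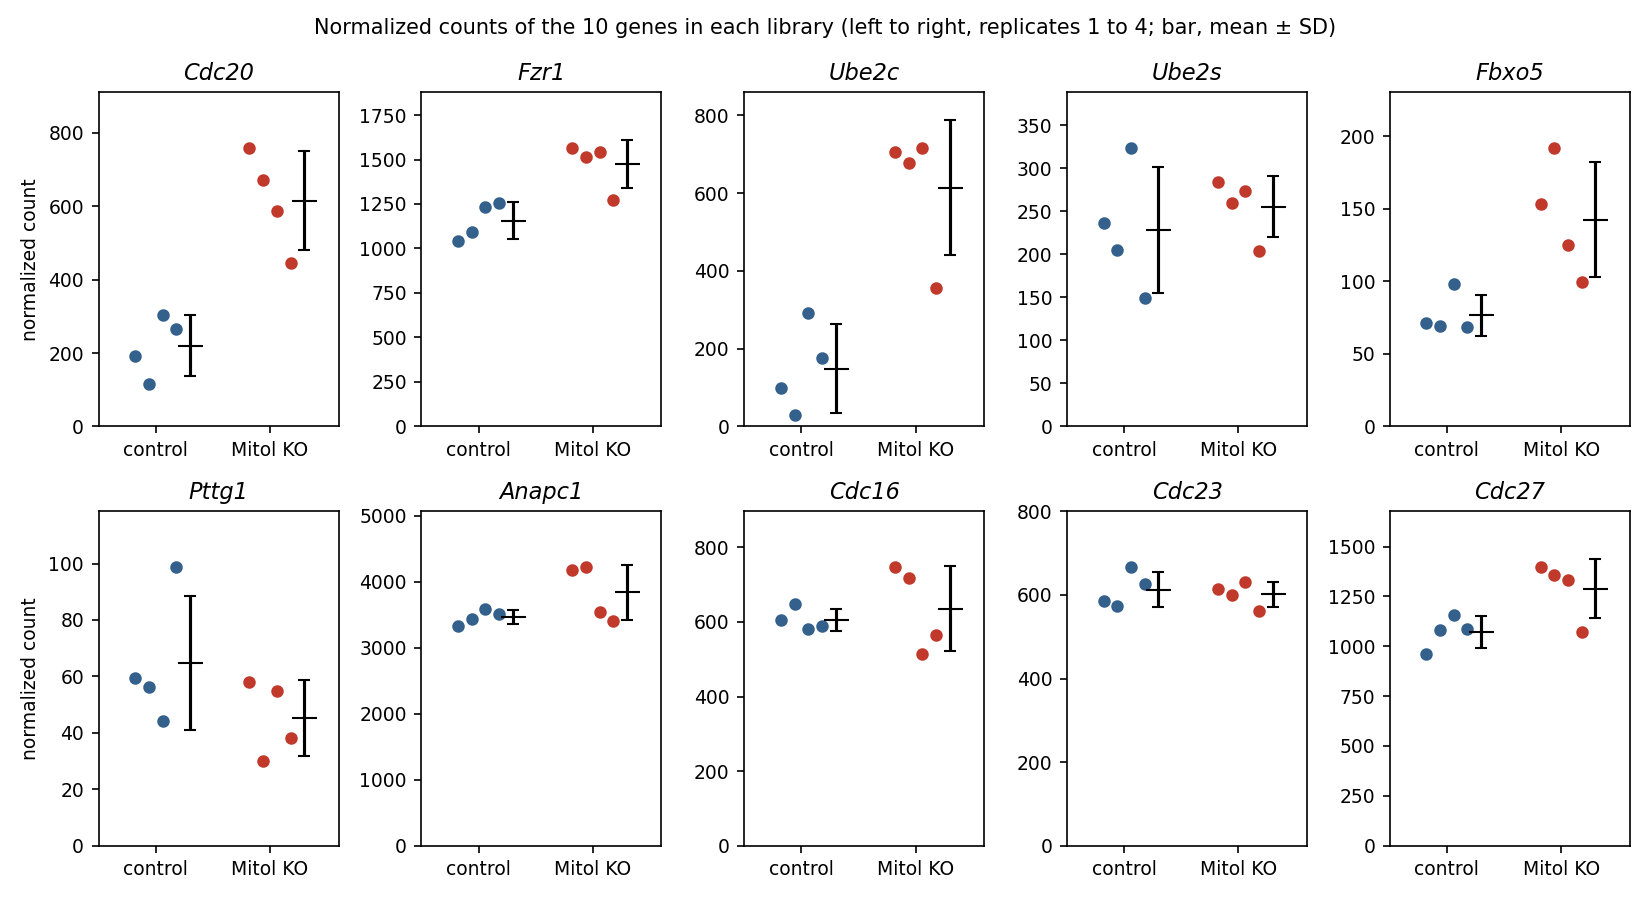
Normalized counts (y axes, from 0) of the 10 genes in each control and Mitol KO library, shown as 1 point per library with the mean ± SD beside them (n = 4 each). The Mitol KO points lie above every control point for Cdc20, Fzr1, Ube2c and Fbxo5, and the groups overlap in the other panels.

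Cdc20, the mitotic activator (chromosome 4, 118290098 to 118294610, minus strand, GRCm39), had 759, 670.2, 587 and 444 normalized counts in Mitol KO and 193, 116, 304 and 266 in control libraries. Every Mitol KO library lay above every control, with the lowest Mitol KO value in replicate 4. The fold change was 2.75 (95% interval 1.88 to 4.03; log2 1.46, SE 0.25, edgeR adjusted p = 0.00934). It remained past the threshold whichever library was left out, with a log2 fold change from 1.25 to 1.66 (adjusted p 0.00256 to 0.0293, edgeR).

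Fzr1 (chromosome 10, 81202056 to 81214352, minus strand) encodes CDH1, the activator that replaces CDC20. It had 1566, 1514, 1539.7 and 1272 normalized counts in Mitol KO and 1042, 1093, 1235 and 1254 in control libraries. The groups were separate by a narrow margin, between 1272 and 1254. The fold change of 1.26 (95% interval 1.08 to 1.46; log2 0.33, SE 0.10) missed the threshold with edgeR (adjusted p = 0.0574) and passed it with DESeq2 (adjusted p = 0.0171) and with edgeR when Mitol KO replicate 4 was left out (adjusted p = 0.0127).

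The log2 ratio of Cdc20 to Fzr1 within a library, taken on normalized counts plus 1, was -1.04, -1.17, -1.39 and -1.51 in Mitol KO and -2.43, -3.22, -2.02 and -2.23 in control libraries. Fzr1 counts exceeded Cdc20 counts in all 8 libraries, and by less in every Mitol KO library than in any control. The mean ratio was 1.20 higher in Mitol KO (-1.28 ± 0.21 against -2.48 ± 0.53, SD, n = 4 each), and 0.95 to 1.35 higher with any library left out.

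Ube2c, the E2 that places the first ubiquitin (chromosome 2, 164611768 to 164620742, plus strand), had 705, 679, 717 and 355 normalized counts in Mitol KO and 97.6, 28.7, 293 and 176 in control libraries. The Mitol KO libraries were all higher, 3 of them close together and replicate 4 near the highest control. Its fold change of 4.02 (95% interval 1.99 to 8.12; log2 2.01, SE 0.47, edgeR adjusted p = 0.0257) was the largest of the 10 genes and had the widest interval. Controls varied by 76.2% of their mean for Ube2c, against 37.9% for Cdc20. The adjusted p rose to between 0.0526 and 0.0612 in the 5 fits without Mitol KO replicate 1, 2 or 3 or control replicate 1 or 4, where the log2 fold change stayed between 1.88 and 2.10. Without control replicate 2, the lowest control, the log2 fold change was 1.67 (adjusted p = 0.0358). Ube2c shares 616 exonic bases with Tnnc2 on the opposite strand, a gene without a row in the count table. How reads there were assigned is not given in the sources used here, so the level of Ube2c is uncertain.

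Ube2s, the E2 that elongates the chain (chromosome 7, 4795621 to 4815589, minus strand), had 284, 259.8, 274 and 204 normalized counts in Mitol KO and 236, 205, 324 and 149 in control libraries. The highest and the lowest value of all 8 libraries were both controls. Its log2 fold change was 0.14 (95% interval -0.31 to 0.60, adjusted p = 0.704, edgeR). The log2 ratio of Ube2c to Ube2s was 1.31, 1.38, 1.39 and 0.80 in Mitol KO and -1.27, -2.80, -0.15 and 0.24 in control libraries. The ratio was above every control in each Mitol KO library, with a difference in means of 2.21 that fell to 1.61 without control replicate 2. Ube2s is uncertain because its exons overlap those of the ribosomal protein gene Rpl28 on the opposite strand over 1502 bases, and the strand setting of the counting is not given in the sources used here.

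**Figure D2:**
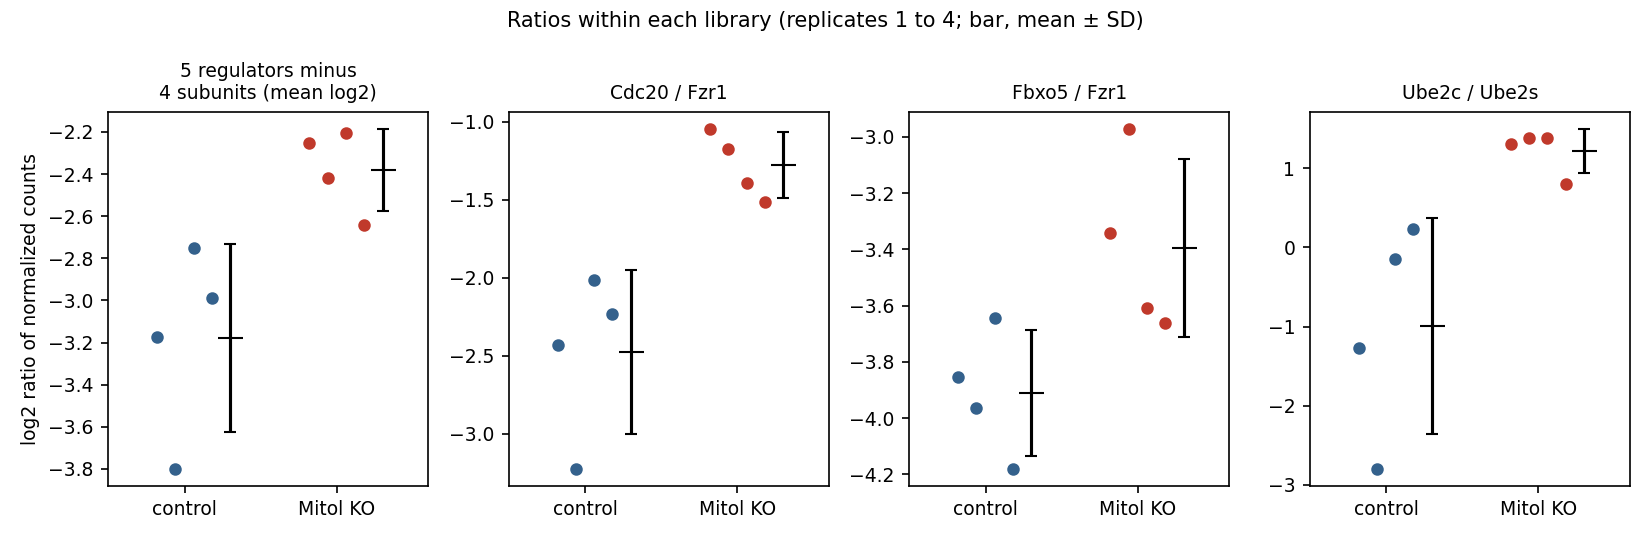
Log2 ratios of normalized counts plus 1 within each library, 1 point per library with the mean ± SD (n = 4 each), for the mean of Cdc20, Ube2c, Ube2s, Fbxo5 and Pttg1 minus the mean of the 4 subunits and for 3 pairs of genes. The groups are separate for the first, for Cdc20 to Fzr1 and for Ube2c to Ube2s, and overlap for Fbxo5 to Fzr1.

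Fbxo5, which encodes the inhibitor EMI1 (chromosome 10, 5748862 to 5755913, minus strand), had 153, 192, 125 and 99.5 normalized counts in Mitol KO and 71.2, 69.2, 98.0 and 68.3 in control libraries. The lowest Mitol KO value, replicate 4, lay just above the highest control, replicate 3. Its fold change was 1.83 (95% interval 1.30 to 2.58; log2 0.87, SE 0.23, edgeR adjusted p = 0.0371). The call held in 2 of 8 fits that left out 1 library, those without Mitol KO replicate 4 and without control replicate 3, and the adjusted p of the others was between 0.0640 and 0.110. The log2 fold change stayed between 0.71 and 1.03 in all 8 fits. The log2 ratio of Fbxo5 to Fzr1 was -3.34, -2.97, -3.61 and -3.66 in Mitol KO and -3.85, -3.96, -3.64 and -4.18 in control libraries. Here the groups overlapped, with control replicate 3 above the lowest Mitol KO library, and the means differed by 0.51.

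Pttg1, the securin that the complex destroys to release separase (chromosome 11, 43311071 to 43321000, minus strand), had 57.9, 30.1, 54.9 and 38.1 normalized counts in Mitol KO and 59.3, 56.4, 44.3 and 98.8 in control libraries. The groups overlapped, and the highest library was a control. Its log2 fold change was -0.53 (95% interval -1.21 to 0.15, adjusted p = 0.304, edgeR), and -0.24 to -0.68 with 1 library left out. It was counted with 29 to 110 reads a library, the lowest upper value among the 10 genes, and the upper end of its interval lies below the interval of Cdc20. Pttg1 shares 220 exonic bases with Slu7 on the opposite strand.

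Anapc1, the largest scaffold subunit (chromosome 2, 128452002 to 128529325, minus strand), was the most highly counted of the 10 genes, at 4179, 4224, 3549 and 3410.0 normalized counts in Mitol KO and 3331, 3440.1, 3580.4 and 3515 in control libraries. The first 2 Mitol KO libraries lay above the controls and the other 2 within their range. The log2 fold change was 0.13 (95% interval -0.06 to 0.32, adjusted p = 0.375, edgeR), so a rise of more than 1.25-fold lies outside the interval. Cdc27, a tetratricopeptide subunit that receives the activators (chromosome 11, 104393332 to 104441446, minus strand), had 1398, 1356, 1333 and 1073 normalized counts in Mitol KO and 963, 1081, 1157 and 1088 in control libraries. Of the Mitol KO libraries, 3 were above every control and replicate 4 was within their range. The log2 fold change was 0.25 (95% interval 0.03 to 0.47) with an adjusted p of 0.144 (edgeR), which became 0.0245 at a log2 fold change of 0.35 without Mitol KO replicate 4. Cdc27 shares 258 exonic bases with Myl4 on the opposite strand.

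Cdc16, another tetratricopeptide subunit (chromosome 8, 13807368 to 13833218, plus strand), had 747, 717, 514 and 565 normalized counts in Mitol KO and 605, 647, 580.3 and 588 in control libraries. The Mitol KO libraries fell on both sides of the controls, 2 above and 2 below. Its log2 fold change was 0.05 (95% interval -0.22 to 0.32, adjusted p = 0.826, edgeR). Cdc23, on chromosome 18, had 614, 601, 632 and 562 normalized counts in Mitol KO and 586, 575, 667 and 625 in control libraries. It varied least in Mitol KO of the 10 genes, by 4.92% of its mean, and its log2 fold change was -0.05 (95% interval -0.25 to 0.16, adjusted p = 0.807, edgeR). Its exons overlap those of Kif20a, a mitotic kinesin gene on the opposite strand, over 2748 bases, and Kif20a rose by 1.44 on the log2 scale (edgeR adjusted p = 0.00844). How reads there were assigned is not given in the sources used here.

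The mean log2 level of Cdc20, Ube2c, Ube2s, Fbxo5 and Pttg1 minus that of the 4 subunits was -2.25, -2.42, -2.21 and -2.64 in Mitol KO and -3.17, -3.80, -2.75 and -2.99 in control libraries. The groups did not overlap, and the means differed by 0.80 (0.59 to 0.94 with 1 library left out). With Fzr1 counted among the regulators the difference was 0.71. This difference is a description of 9 genes and carries no test.

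Levels between genes were compared as CPM, the library-scaled count, per kilobase of the canonical transcript (CPM per kb). In controls, Anapc1 (40.9 ± 1.28, SD, n = 4) and Fzr1 (40.0 ± 3.66) stood highest, with overlapping ranges, and were separate from Cdc27 (19.6 ± 1.47), the next in order. Ube2s, Cdc16, Ube2c, Cdc23 and Cdc20 followed, from 19.5 to 12.5, each with a range that overlapped its neighbour. Pttg1 was at 8.99 ± 3.32 and Fbxo5 was lowest, at 3.18 ± 0.58, with no overlap between those 2. In Mitol KO libraries, Ube2c came first (67.5 ± 19.3), then Fzr1 (51.1 ± 4.98), Anapc1 (45.5 ± 5.22) and Cdc20 (35.2 ± 7.86), and the ranges of neighbours overlapped throughout this order except between Cdc23 (15.4 ± 0.82) and Pttg1 (6.31 ± 1.88). By mean level, the E2 that starts chains ranked 6 in controls and 1 in Mitol KO libraries, and the mitotic activator ranked 8 and 4. Since the ranges of neighbours overlapped, these places are not resolved.

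**Figure D3:**
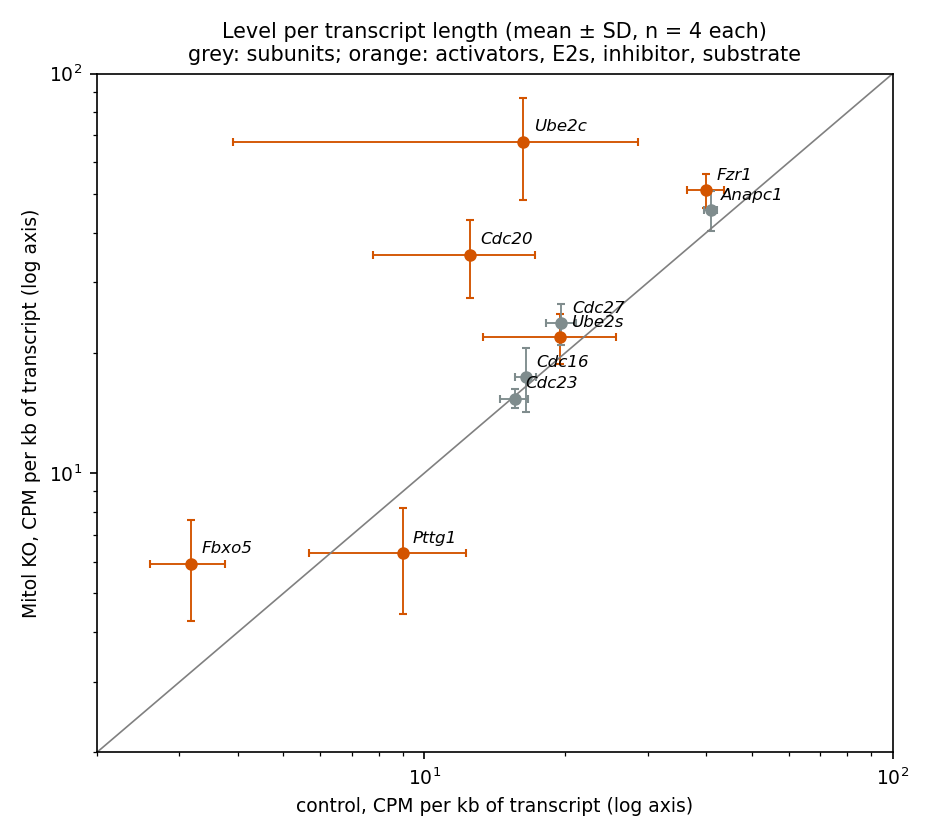
Level of each of the 10 genes in control (x axis) and Mitol KO (y axis) libraries, in CPM per kb of transcript on log axes, as mean ± SD (n = 4 each), with the grey line marking equal levels. Ube2c, Cdc20 and Fbxo5 lie well above the line, while the 4 subunits lie on or near it.

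The promoters of the genes that rose and of Pttg1 and Anapc1 are shown because cell cycle genes of late S to M phase often carry a CHR element, bound by the DREAM and MuvB complexes, next to CCAAT boxes bound by NF-Y. The stretches run 5′ to 3′ on the coding strand up to the last base before the RefSeq gene start in GRCm38.p6, and capitals mark matches on either strand to CHR (TTTGAA or TTCGAA) or CCAAT. They lie at chr4:118437344-118437443 (- strand) for Cdc20, chr2:164769679-164769928 (+ strand) for Ube2c, chr10:5805466-5805565 (- strand) for Fbxo5, chr11:43425982-43426081 (- strand) for Pttg1 and chr2:128687396-128687495 (- strand) for Anapc1.
Cdc20: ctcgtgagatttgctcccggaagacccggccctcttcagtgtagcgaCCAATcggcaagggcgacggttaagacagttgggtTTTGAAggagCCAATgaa
Ube2c: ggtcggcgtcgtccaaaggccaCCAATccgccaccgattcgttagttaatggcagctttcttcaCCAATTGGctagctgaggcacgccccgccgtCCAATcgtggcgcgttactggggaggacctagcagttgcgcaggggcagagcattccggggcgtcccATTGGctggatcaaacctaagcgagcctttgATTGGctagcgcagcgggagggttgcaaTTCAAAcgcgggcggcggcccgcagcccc
Fbxo5: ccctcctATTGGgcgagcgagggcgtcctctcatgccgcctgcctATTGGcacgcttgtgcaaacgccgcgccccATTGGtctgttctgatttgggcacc
Pttg1: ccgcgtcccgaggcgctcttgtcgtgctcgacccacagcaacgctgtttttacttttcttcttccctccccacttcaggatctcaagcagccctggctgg
Anapc1: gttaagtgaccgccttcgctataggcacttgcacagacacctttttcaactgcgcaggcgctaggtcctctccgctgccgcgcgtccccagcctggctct
Positions are counted from the start, with the base before it as -1. Cdc20 has a CHR at -18 to -13 and CCAAT boxes that begin at -53 and -8. Ube2c has a CHR at -29 to -24 on the reverse strand and 6 CCAAT matches, of which the pair at -186 and -183 overlaps. Fbxo5 has CCAAT boxes that begin at -93, -55 and -25, and its CHR lies past the start, at 4 to 9, outside the stretch shown.

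RefSeq windows of 250 bases before to 50 bases after the start were at hand for 9 of the 10 genes, all but Cdc23, and for 13326 starts of 10431 tested genes. A CHR stood in 4 of these 9, the 3 genes that rose and Ube2s, against 14.3% of all windows. Ube2s, which did not pass the test, has its match further upstream, at -162 to -157. A CCAAT box stood in 5 of 9 (Cdc20, Ube2c, Fbxo5, Fzr1 and Cdc27), against 37.5% of all windows. The windows of Cdc20, Ube2c and Fbxo5 were the only ones of the 9 with both. The share of all windows with both was not counted, and a link between these matches and the rise was not tested. None of the 9 matched the E2F words searched (TTTCCCGC, TTTGGCGC, TTTCGCGC or TTTGCCGC), which were in 3.82% of all windows. A match is a run of letters and not a measured site.

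**Figure D4:**
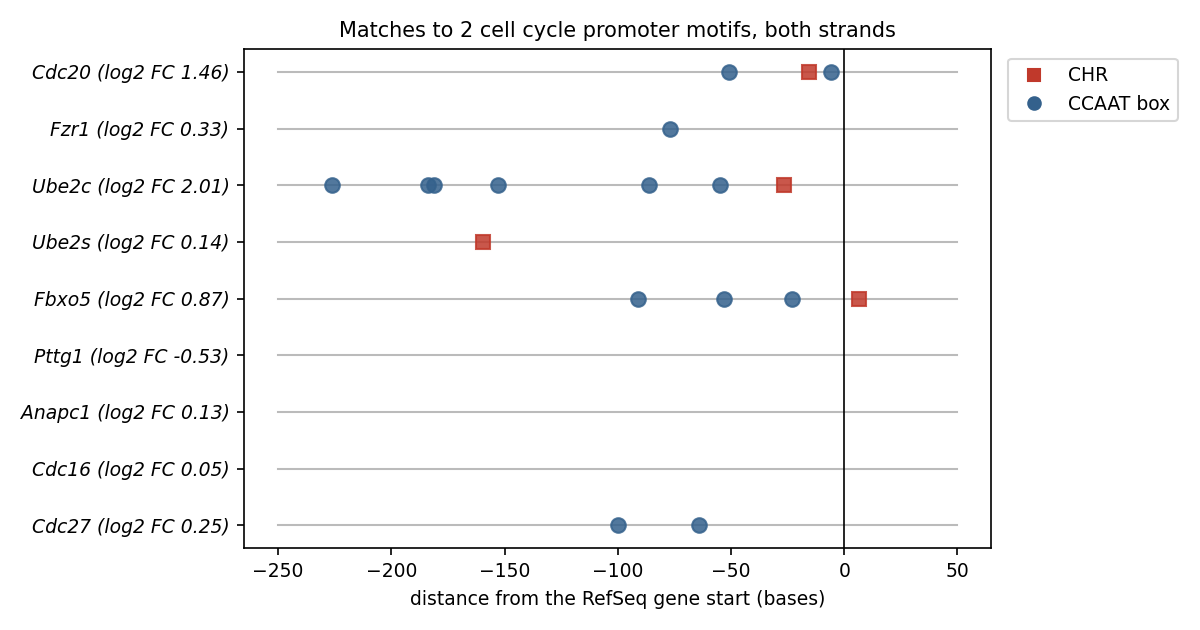
Matches to CHR (squares) and CCAAT (circles) on either strand in the 9 RefSeq windows, by distance in bases from the gene start (x axis), with the log2 fold change of each gene beside its name. Cdc20, Ube2c and Fbxo5 carry both kinds of match and the CHR of each lies within 29 bases of the start.

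Beyond the 4 subunits above, 10 other subunits of the complex were tested, and none passed, against 8.43% of all tested genes. Their log2 fold changes ran from -0.45 to 0.39 with a median of 0.04, and the median over all 14 subunits was 0.06. The highest was Anapc15, a small subunit that helps release checkpoint proteins, at 0.39 (SE 0.23, adjusted p = 0.302, edgeR). Cdc26, a small subunit that stabilizes CDC16, was the lowest at -0.45 (SE 0.14). It had 355, 348, 401 and 405 normalized counts in Mitol KO and 418, 571, 450.3 and 598 in control libraries. All Mitol KO values were below the controls, and the adjusted p was 0.0591 with edgeR and 0.0300 with DESeq2.

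Of 12 further regulators of the complex, 11 were tested and Fbxo43 was not in the table. Of the 11, 3 rose and 1 fell, against 4.68% and 3.75% of all tested genes. Espl1, the separase that securin holds in check, rose from 402 ± 137 to 1162 ± 402 normalized counts (log2 1.51, SE 0.27, edgeR adjusted p = 0.0107). Bub1b, a checkpoint kinase-like protein that inhibits CDC20, rose by 1.36 on the log2 scale (SE 0.23, edgeR adjusted p = 0.00844). Trip13, an ATPase that dismantles the checkpoint complex, rose by 1.20 on the log2 scale (SE 0.26, edgeR adjusted p = 0.0195). The calls of Espl1 and Bub1b held in all 8 fits that left out 1 library, and that of Trip13 in 4 of them. For these 3 genes every Mitol KO library was above every control, as for 8.17% of all tested genes. Cdc14b, a phosphatase linked to the CDH1 form of the complex, fell by 0.87 on the log2 scale (SE 0.24, edgeR adjusted p = 0.0448), with 73.6, 127, 105 and 179.9 normalized counts in Mitol KO and 215, 236, 178 and 242 in control libraries, which overlap. Its call was lost in 7 of these 8 fits. The checkpoint gene Mad2l1 was at 0.78 (adjusted p = 0.0565, edgeR) and Bub3 at 0.35 (adjusted p = 0.101, edgeR). The median of the 11 was 0.33.

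A further list of transcripts that encode substrates of the complex was chosen with earlier results of these data known, and most of them rose. The list leaves out the substrate Pttg1, described above, which was at a log2 fold change of -0.53 (edgeR adjusted p = 0.304). Of 26 listed, 21 rose and none fell, against 4.68% and 3.75% of all tested genes. All 26 log2 fold changes were above 0, and their median was 1.36 against -0.02 over all tested genes. Adjusted p-values of the 21 ran from 0.00344 to 0.0434 (edgeR). The highest was Rrm2, the small subunit of ribonucleotide reductase, at 2.18 (SE 0.27), with 1826, 1479, 1325 and 671 normalized counts in Mitol KO and 282, 403, 263 and 206 in control libraries. Again every Mitol KO library was above every control and replicate 4 was the lowest of them.

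Of the cyclins, Ccna2 rose by 1.90, Ccnb1 by 1.57 and Ccnb2 by 1.55 on the log2 scale. Of the mitotic kinases and their partner Tpx2, Plk1 rose by 1.74, Aurkb by 1.70, Tpx2 by 1.67, Bub1 by 1.62 and Aurka by 1.41. The cohesion factors Cdca5 (1.55) and Sgo1 (0.94) and the cell division gene Cdca3 (1.43) also rose. Spindle and cytokinesis genes rose by 1.41 (Nusap1), 1.32 (Dlgap5), 1.14 (Anln), 1.11 (Ckap2), 1.04 (Kif22) and 0.97 (Prc1). The genes that act in the control of replication rose by 1.02 (Gmnn), 0.99 (Cdc6) and 0.62 (Dbf4). The 5 that did not pass were Hmmr (1.43, adjusted p = 0.0502, edgeR), Nek2 (1.32), Tk1 (0.60), Cdc25a (0.51) and Skp2, the lowest (0.25). Without control replicate 2 or Mitol KO replicate 2 the number of substrates called was 7, and without Mitol KO replicate 4 it was 25.

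The SCF ligase, the other large cullin-type ligase of the cell cycle, was followed through 8 genes. Of these, 2 rose, against 4.68% of all tested genes. Ccnf, the F-box protein cyclin F, which itself varies through the cycle, rose by 1.03 on the log2 scale (SE 0.20, edgeR adjusted p = 0.0154). Fbxw7, the F-box protein for cyclin E and MYC, rose by 0.34 (SE 0.10, edgeR adjusted p = 0.0496), at the edge of the threshold. With 1 library left out, the call of Ccnf held in 7 of 8 fits and that of Fbxw7 in 1. The core genes Cul1 (0.30), Rbx1 (0.31) and Skp1 (0.25) did not pass, nor did Cks1b (0.95, adjusted p = 0.0503, edgeR), and Btrc was the lowest at -0.13. The median was 0.31.

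**Figure D5:**
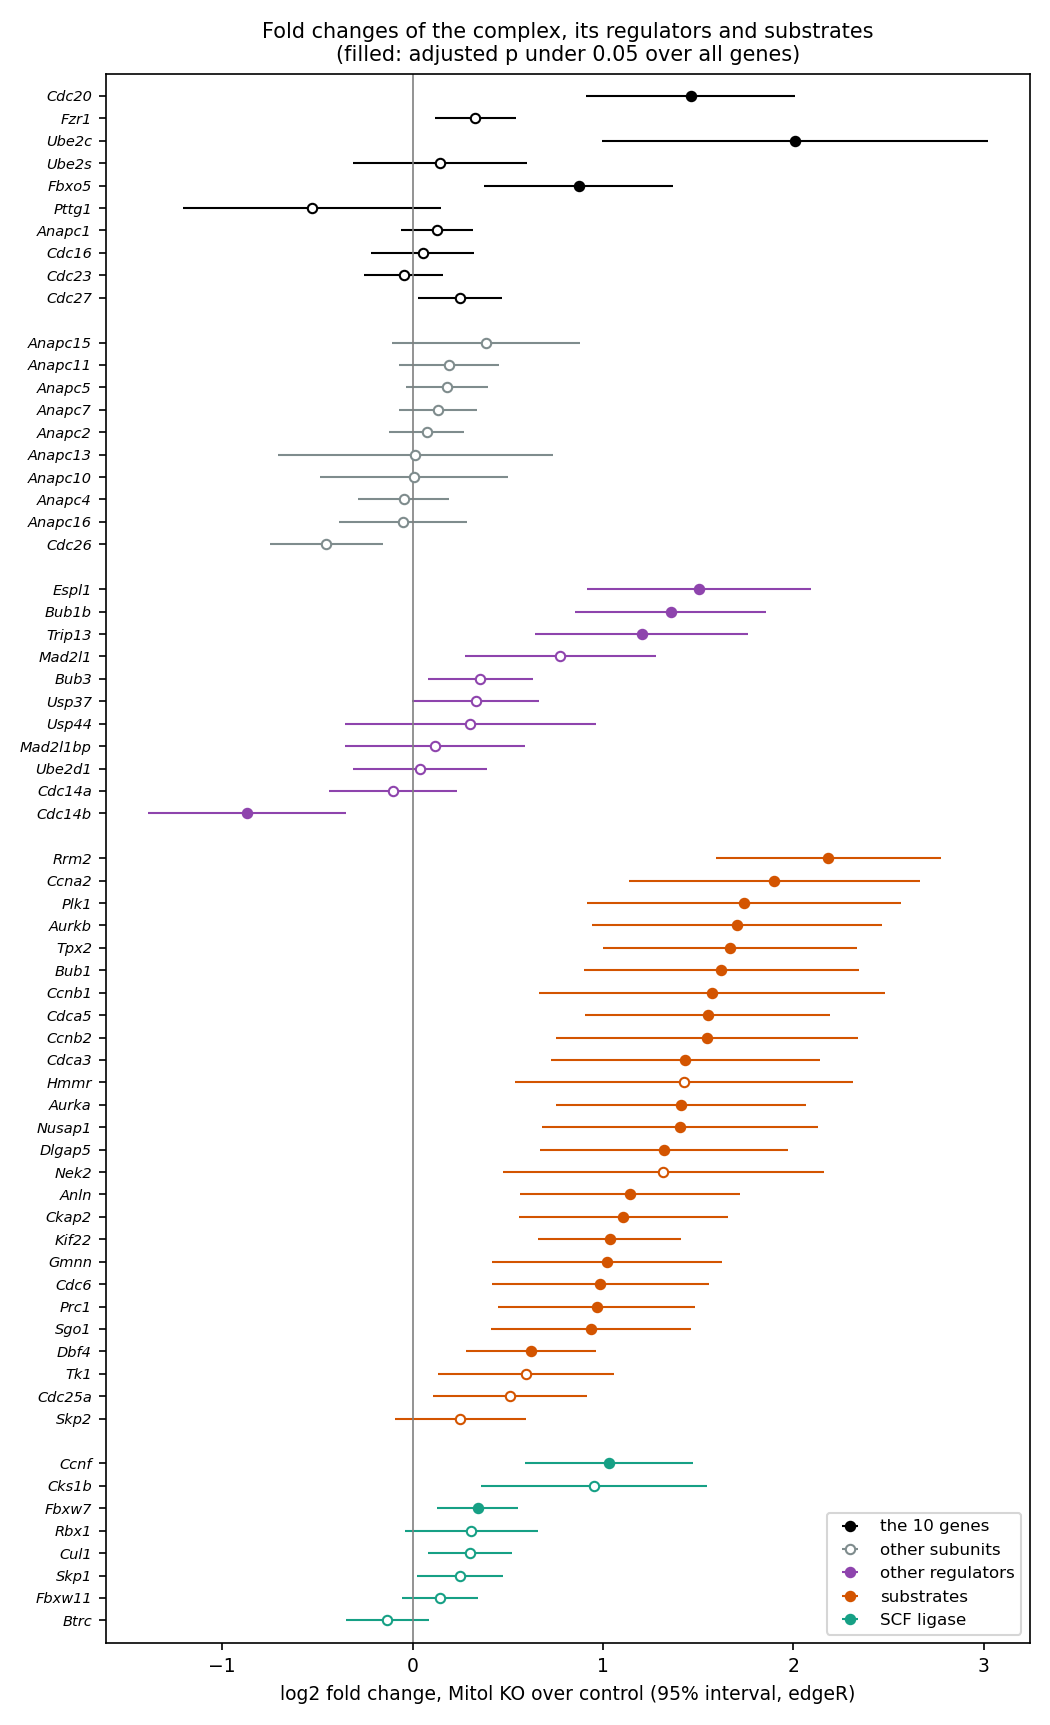
Log2 fold changes of Mitol KO over control (x axis) with 95% intervals from edgeR for the 10 genes, the other subunits, the other regulators, the substrates and the SCF genes. Filled points have an adjusted p under 0.05 over all tested genes; all subunits are open, and 21 of the 26 substrates are filled and lie above 0.

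Likeness of profile was measured over the 8 libraries, among 12018 genes with a mean of at least 50 normalized counts. The measure was the root mean square difference between log2 normalized counts plus 1, centred on each gene's mean but not scaled. It thus takes in the size of a gene's changes as well as their shape. The 5 genes nearest to Cdc20 were Ect2 (0.15), Cdca3 (0.18), Anln (0.19), Parpbp (0.19) and Kif18b (0.21). Ect2 and Anln act in cytokinesis and Kif18b is a mitotic kinesin. Fbxo5 ranked 116, Ube2c 808 and Fzr1 985, while Pttg1 ranked 10976. For Anapc1 the nearest were Ubap2l, Emc1, Ptp4a2, Fto and Tmed3, at differences of 0.03 to 0.05. Of the other subunits, Cdc27 ranked 454, Cdc16 608 and Cdc23 1194.

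Some libraries stood apart in the same way across these genes. Mitol KO replicate 4 was the lowest Mitol KO library for 8 of the 10 genes and for all 21 substrates that rose, against 29.7% of all tested genes. Control replicate 3 was the highest control for 7 of the 10 genes and for 18 of the 21 substrates, against 22.7% of all tested genes. Mitol KO replicate 4 was thus the library of its group nearest to the controls for Cdc20, Ube2c and Fbxo5, and leaving it out raised the number of the 10 genes called from 3 to 5, adding Fzr1 and Cdc27. Leaving out Mitol KO replicate 1, 2 or 3 or control replicate 1 or 4 left Cdc20 as the 1 gene called.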

How the data were processed

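The authors aligned reads to mm39 with STAR, handled alignment files by SAMtools and obtained gene counts from Subread, per the labels and the paper's methods; the annotation and strand setting are not given in the sources used here. The deposited values are raw counts without normalization. The table holds 23094 rows, each summing to at least 11, so genes with fewer counts are absent. Its 1029 rows without a gene symbol (0.335% to 0.467% of counts) stayed out of library sizes and tests.

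Counts were tested with edgeR 4.0.16 (TMM, default expression filter, quasi-likelihood, condition as the sole term, R 4.3.3), with Benjamini-Hochberg adjustment at 0.05. Normalized counts used DESeq2 1.42.0 size factors. Ratios used a pseudocount of 1. Alternatives were DESeq2 size factors in edgeR, no filter, DESeq2, limma-voom (limma 3.58.1), a replicate block, a pseudocount of 5 and leaving out each library. The fits were tested on simulated data. Gene positions and transcript lengths come from GENCODE vM39 (GRCm39) and promoter windows from RefSeq (GRCm38.p6), which were not mixed. The genes and lists were chosen with earlier results of these data known. Named from the further lists are all genes past the threshold and each list's extremes, and beside them Mad2l1, Bub3, Cul1, Rbx1, Skp1, Cks1b, the substrates that did not pass, Kif20a and cell type markers, named after their values were seen. Values of some single marker genes are not reported here. Replicate numbers are in the labels, but same-numbered samples correlated by between -0.07 and 0.08 in their deviations from the group means, so they were not treated as pairs.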

Additional observations from a re-analysis of the deposited data

Results flagged for a closer look

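In each group of 4 libraries, the gap between the highest or lowest library and its neighbour was divided by the range of the group and set against Dixon's 95% critical value. Of 28 groups looked at (10 genes and 4 ratios in 2 conditions), 3 exceeded it, and chance gives about 1 in 20. Ube2c was far lower in Mitol KO replicate 4 than in the other Mitol KO libraries, with a gap of 0.894 of the range. The log2 ratio of Ube2c to Ube2s was low in the same library (0.869), and the 2 share the Ube2c counts. Fbxo5 was far higher in control replicate 3 than in the other controls (0.9002).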

How the results depend on the processing

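The direction of the log2 fold changes of the 10 genes was the same in all 50 values from the 5 settings that kept all libraries, and the call differed in 1 of them, Fzr1 with DESeq2 (log2 0.35, adjusted p = 0.0171). With 1 library left out, 4 of 80 values changed sign, all near 0: Ube2s without control replicate 4 (-0.016, in a range up to 0.37), Cdc16 without Mitol KO replicate 1 (-0.030) or 2 (-0.0029), in a range up to 0.16, and Cdc23 without Mitol KO replicate 4 (0.0053, in a range down to -0.075). Leaving out 1 library gave 1 to 5 of the 10 genes called (main 3), 359 to 2501 genes in all (main 1386, and 2315 with DESeq2), 0 to 1 other subunits (main 0, and 1, Cdc26, with DESeq2), 2 to 7 other regulators (main 4), 7 to 25 substrates (main 21) and 0 to 4 SCF genes (main 2, with 4 under DESeq2 and 1 without the expression filter). These fits have fewer samples, and beyond that the cause was not tested. The number of all genes called was lowest without control replicate 2 and highest without Mitol KO replicate 4. With the replicate block, 1652 genes and 3 of the 10 were called. In a check of pairing, 2 of 4 Mitol KO libraries correlated best with the control of their own number. Among the 10 genes the lowest raw counts in a library were 27 (Ube2c) and 29 (Pttg1), and 100 cells a library limit all values.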
